A study of Mus musculus with 4 samples.

Results

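Expression of 8 genes tied to neutrophils was followed in mouse distal colon across 4 arrays. They are the calprotectin subunit genes S100a8 and S100a9, the receptor genes Csf3r, Fpr2, Trem1 and Clec4d, and the granule protein genes Ltf and Elane. The members were chosen by name. They comprised each probe set (a group of short probes read as a single value) that the platform annotation gives to 1 gene among these 8. This gave 8 of 18193 named genes and 9 of 45037 probe sets that are not controls, with Trem1 on 2 probe sets and the others on 1 each.

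Calprotectin is a heterodimer of calcium-binding S100 proteins that fills the cytosol of neutrophils, starves microbes of metal ions and acts as an alarm signal through pattern receptors. Monocytes and stressed epithelia can make it too, and its stool level is a clinical measure of gut inflammation. Csf3r binds granulocyte colony-stimulating factor (G-CSF), Fpr2 senses formylated and host inflammatory peptides, Trem1 amplifies inflammatory signalling through the adaptor Tyrobp, and Clec4d is a C-type lectin receptor for fungal and mycobacterial glycolipids. Elane, the elastase of primary (azurophil) granules, is transcribed mainly in early bone marrow precursors, and Ltf, the lactoferrin of secondary (specific) granules, in later precursors and in some glandular epithelia.

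The 4 groups combined genotype and treatment. The mice were wild type for Adamts12 (Adamts12 WT) or lacked it (Adamts12 KO), and were either untreated or given dextran sodium sulfate (DSS) at 2% in their drinking water, a chemical injury of the gut lining. Treatment began at 8 to 10 weeks of age. The sources disagree on whether DSS lasted 7 or 8 days (design text and protocol, respectively), with 1 further day off it. Each group was 1 array, labelled as 1 mouse. Differences between single arrays therefore come with neither a replicate check nor a p-value. Strain, sex and the part of Adamts12 that was removed are not given in the sources used here.

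Values are log2 expression as deposited, so a difference of 1 is a 2-fold change. The array medians lay between 3.41 and 3.46. A background limit of 1.39 was the highest reading of 9 probe sets of Y chromosome genes, Xist being bright on all 4 arrays, and every member reading lay above it. The limit is a low one, under the lower quartile of each array (1.74 to 1.88), so a reading above it can still be background. All 9 colon epithelium markers looked at lay above the median of each array, with Cdh17, an intestinal cadherin, between 10.08 and 10.12. Not all of them were as level. Between untreated KO and untreated WT, Car1 differed by 2.71 and Slc26a3 by -1.90. With DSS in KO, Car1 differed by -2.36 and Muc2 by -1.12. The brighter of the Adamts12 probe sets read 2.18 on both WT arrays and 1.42 and 1.41 on the untreated and DSS KO arrays, and the other at most 0.97, low values that check the genotypes weakly. Genes that mark where along the intestine a sample lies set the untreated KO array apart, and some of them shifted the same way on the WT DSS array. Hoxb13, a homeobox gene of the hindgut, read 2.48 there and 7.84 to 9.47 on the other 3 arrays, and the enterocyte lipid carrier gene Fabp2 10.62 there and 4.51 to 8.07 elsewhere. Hoxd13, another hindgut gene, read 8.82 and 3.36 on the untreated WT and KO arrays and 4.22 and 7.20 on the WT and KO DSS arrays, and Isx, a homeobox gene of the intestine, 2.69, 8.35, 6.09 and 4.52. For the DSS difference in KO, the difference from the untreated WT array is given as well, a comparison added after the data were seen. That comparison changes genotype and treatment together. Comparisons of the untreated genotypes, and those with the WT DSS array, have no such substitute, and the part of sampling position in them was not tested.

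S100a8, S100a9, Fpr2 and Clec4d had the largest genotype differences under DSS among the members, and the 250 bases before their annotated start are shown so that the sequence next to these genes can be read beside their values. They are from RefSeq, build GRCm38.p6, 5′ to 3′ on the strand of the gene, and promoter entries were found for 8 of the 8 members. Capitals mark matches to 4 motifs. These were TATAAA, the TATA box, on the strand of the gene, and on both strands TTGCNNAA for the myeloid factor family C/EBP, GAGGAAG for the myeloid factor PU.1 and TTCNNNGAA for STAT factors. S100a8 is at chr3:90668821-90669070 (+), S100a9 at chr3:90695722-90695971 (-), Fpr2 at chr17:17887574-17887823 (+) and Clec4d at chr6:123261857-123262106 (+).
S100a8: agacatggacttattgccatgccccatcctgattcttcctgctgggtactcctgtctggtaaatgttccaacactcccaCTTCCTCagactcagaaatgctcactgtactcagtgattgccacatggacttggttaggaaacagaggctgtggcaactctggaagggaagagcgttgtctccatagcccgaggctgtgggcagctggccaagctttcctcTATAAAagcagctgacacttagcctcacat
S100a9: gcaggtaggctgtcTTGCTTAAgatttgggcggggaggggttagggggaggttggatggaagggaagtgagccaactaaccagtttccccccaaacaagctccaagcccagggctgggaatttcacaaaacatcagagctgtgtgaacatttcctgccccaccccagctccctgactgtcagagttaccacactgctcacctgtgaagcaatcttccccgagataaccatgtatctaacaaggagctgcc
Fpr2: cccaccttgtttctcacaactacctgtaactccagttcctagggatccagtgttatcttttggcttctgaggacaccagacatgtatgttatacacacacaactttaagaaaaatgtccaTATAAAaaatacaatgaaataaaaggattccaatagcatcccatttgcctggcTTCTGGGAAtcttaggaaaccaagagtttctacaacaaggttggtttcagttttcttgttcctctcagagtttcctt
Clec4d: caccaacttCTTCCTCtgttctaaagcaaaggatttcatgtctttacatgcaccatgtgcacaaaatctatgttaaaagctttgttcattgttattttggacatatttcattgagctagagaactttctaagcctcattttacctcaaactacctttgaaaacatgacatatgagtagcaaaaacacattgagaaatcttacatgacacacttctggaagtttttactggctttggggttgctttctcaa

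S100a8 and S100a9 lie next to each other on chromosome 3, with 0 annotated genes between them. The motifs were searched in 300-base windows that also hold the 50 bases after the start, and no match of a motif overlapped a match of another. TATAAA was found at bases -30 to -25 from the start of S100a8, at 1 to 6 of S100a9, just after its annotated start, and at -130 to -125 of Fpr2, where 8.32% of all 32851 promoter windows hold it. GAGGAAG was found in S100a8, Csf3r, Clec4d and Elane, that is in 4 of 8 members, against 13.6% of windows. TTGCNNAA was found in S100a9 and Ltf, against 10.8%, and TTCNNNGAA in Fpr2 and Trem1, against 8.30%. A match is a description of letters and not a measured binding site. The motifs were chosen with the sequences in view, so the shares are no test of enrichment.

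Calprotectin gave the widest range of the members. S100a8 (1419394_s_at, a probe set type that can match several transcripts, as is that of Clec4d) read 1.61 on the untreated WT array, 1.89 on the untreated KO array, 5.81 on the WT DSS array and 8.30 on the KO DSS array. S100a9 (1448756_at) read 2.15, 1.94, 4.95 and 8.38 on the same arrays. Both untreated colons were thus dim for both subunits, at percentiles 22.1 to 32.0 of the probe sets of their arrays, and the KO DSS colon was bright, at percentiles 95.6 and 95.9.

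The DSS difference of S100a8 was 4.20 in WT and 6.41 in KO, or 18.4-fold and 85.0-fold, from untreated readings near the background limit. That of S100a9 was 2.80 in WT and 6.44 in KO, or 6.96-fold and 86.8-fold. With readings under the array median raised to it, a setting added after the data were seen, the differences were 2.38 and 4.84 for S100a8 and 1.52 and 4.92 for S100a9, in WT and KO. In KO the subunits differed almost equally, and in WT the difference of S100a8 was the larger. Among all 45037 probe sets ordered by DSS difference in KO, S100a9 held rank 4 and S100a8 rank 5. In WT, S100a8 held rank 6 and S100a9 rank 23. The KO DSS array lay 6.69 above the untreated WT array for S100a8 and 6.23 above it for S100a9.

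**Figure D1:**
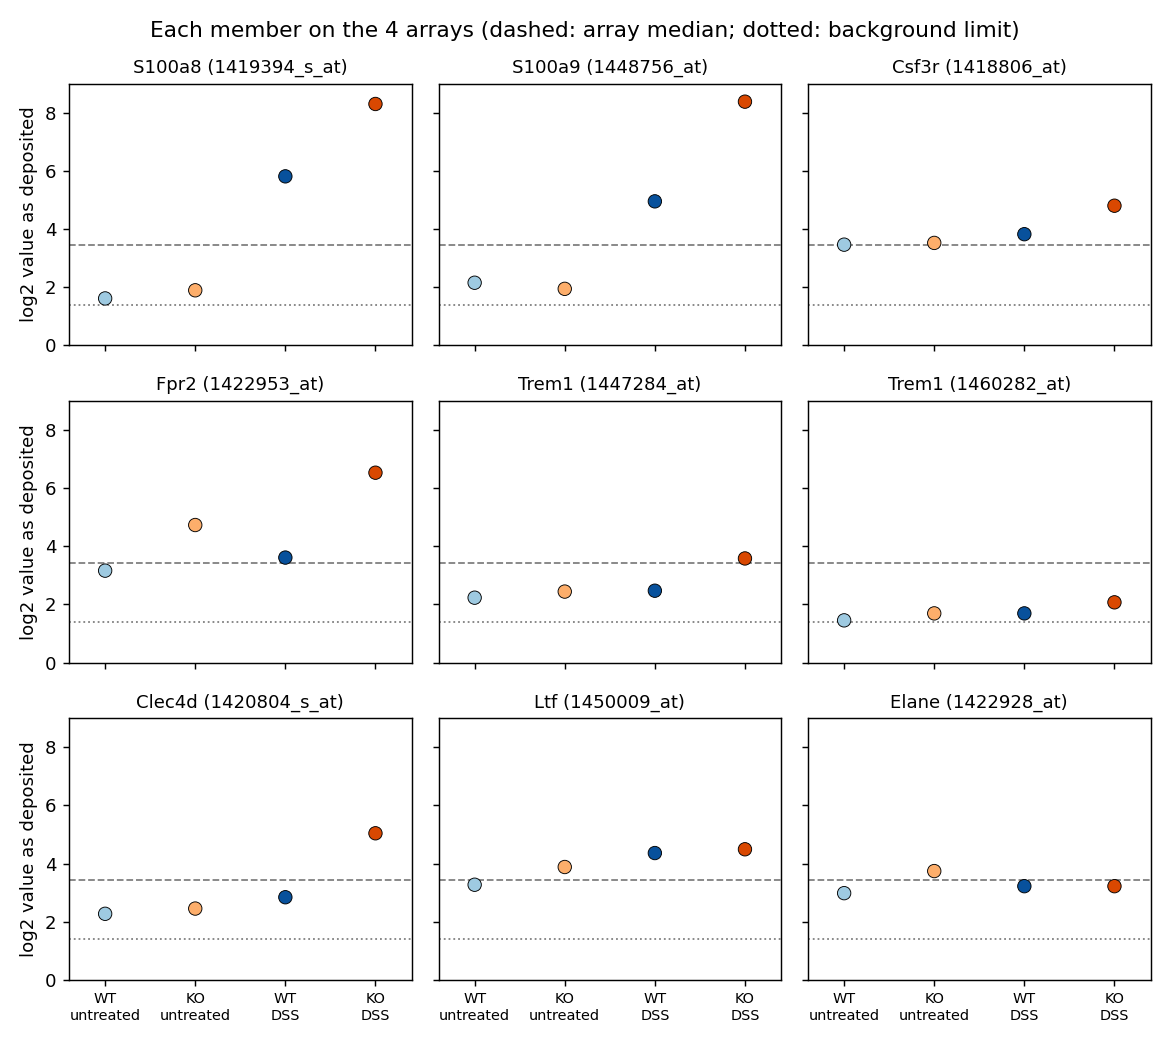
Log2 value as deposited (vertical axis) of each member probe set on the 4 arrays (horizontal axis, 1 point per array), with the array median dashed and the background limit of 1.39 dotted. S100a8 and S100a9 lie between 1.61 and 2.15 on the untreated arrays and reach 8.30 and 8.38 on the KO DSS array, while Elane stays between 2.98 and 3.74.

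Among the receptors, Clec4d and Fpr2 had the larger differences. Clec4d (1420804_s_at) read 2.27 and 2.45 on the untreated WT and KO arrays, 2.84 on the WT DSS array and 5.04 on the KO DSS array. Only on the KO DSS array did it lie above the array median, so its 3 other values are low. The DSS difference was 0.57 in WT and 2.59 in KO, and 2.77 from the untreated WT array. With the array median as the floor it was -0.02 in WT and 1.58 in KO.

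Fpr2 (1422953_at) was the member at least 2-fold apart between genotypes without DSS. It read 3.16 on the untreated WT array, 4.73 on the untreated KO array, 3.61 on the WT DSS array and 6.53 on the KO DSS array. The untreated KO colon was thus higher than the DSS-treated WT colon. The DSS difference was 0.45 in WT and 1.80 in KO, and the KO DSS array exceeded the untreated WT array by 3.37.

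The G-CSF receptor gene and Trem1 had smaller differences. Csf3r (1418806_at) read 3.46 and 3.52 on the untreated WT and KO arrays, 3.82 on the WT DSS array and 4.80 on the KO DSS array. Its DSS difference was 0.36 in WT and 1.28 in KO, and 1.34 from the untreated WT array. Its reading in KO with DSS stood above the other 3, which were nearly level.

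Trem1 was low on both of its probe sets. The brighter one (1447284_at) read 2.23, 2.44, 2.47 and 3.58 on the untreated WT, untreated KO, WT DSS and KO DSS arrays, passing the array median on the last of them alone. The other one (1460282_at) read 1.45, 1.69, 1.69 and 2.07, under the median on all 4 arrays and close to the background limit. Both were highest on the KO DSS array, with DSS differences in KO of 1.14 and 0.38, and in WT of 0.24 on each. Counted from untreated WT, KO with DSS was higher by 1.35 and 0.62.

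The granule protein genes had nearly equal values on the DSS arrays of both genotypes. Ltf (1450009_at) read 3.27 and 3.88 on the untreated WT and KO arrays, 4.36 on the WT DSS array and 4.49 on the KO DSS array. Its DSS difference was 1.09 in WT and 0.61 in KO, and 1.22 between the KO DSS and untreated WT arrays. Elane (1422928_at) read 2.98, 3.74, 3.22 and 3.22, near the array medians throughout, and was highest in the untreated KO colon. Its DSS difference was 0.24 in WT and -0.52 in KO, and its KO DSS array was 0.24 above the untreated WT array.

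Counted together, a DSS difference of 2-fold or more upward was read in WT for 3 of the 9 member probe sets (S100a8, S100a9 and Ltf) and for 2.91% of all probe sets. In KO there were 6 of 9 (S100a8, S100a9, Csf3r, Fpr2, Clec4d and the brighter Trem1 probe set), against 5.95%. Members at least 2-fold lower numbered 0 in each genotype, against 2.72% of all probe sets in WT and 3.44% in KO. The median DSS difference of the 9 was 0.45 in WT and 1.28 in KO, beside 0.00 and -0.06 over all probe sets. With untreated WT as the control of the KO DSS array, 7 of 9 were at least 2-fold higher, Ltf being added, against 3.05% of all probe sets. This joins the DSS difference in KO with the genotype difference without DSS, and for Ltf each of them was 0.61. In these tissue extracts, more cells of a type and more RNA per cell cannot be told apart.

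**Figure D2:**
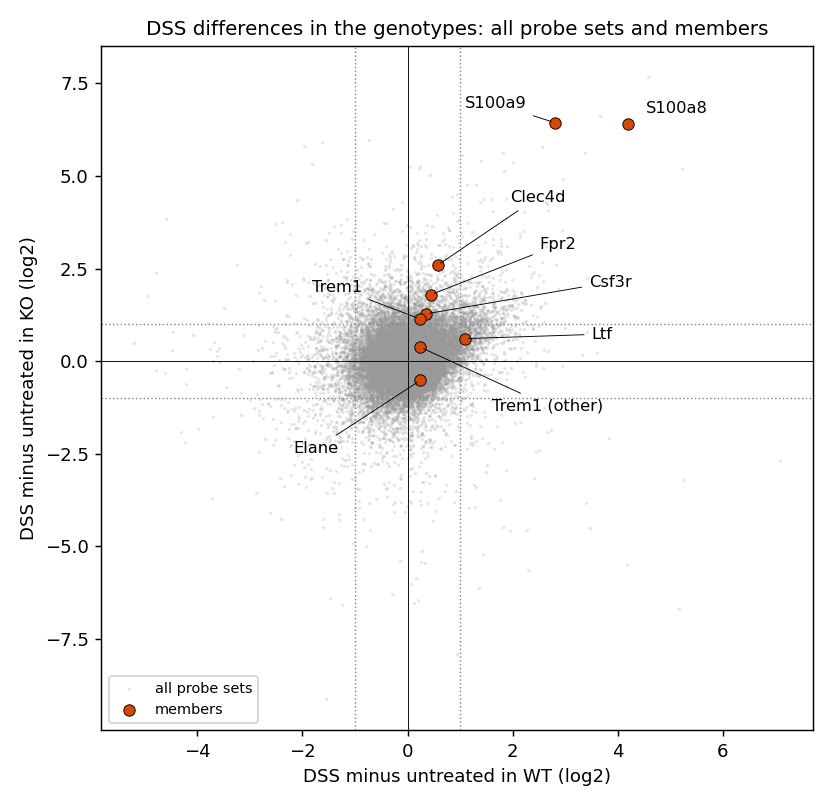
DSS minus untreated log2 difference in WT (horizontal axis) and in KO (vertical axis) for all 45037 probe sets (grey) and the 9 member probe sets (orange), with 2-fold limits dotted; the axes rest on separate arrays. S100a8 and S100a9 lie apart from the other members at 6.41 and 6.44 in KO, Clec4d, Fpr2, Csf3r and the brighter Trem1 probe set lie above the KO limit but inside the WT limits, and Elane lies below 0 in KO.

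The DSS effect over both genotypes was tested with limma's additive model, in which any difference of the effect between genotypes counts as error and 1 residual degree of freedom is left. S100a8 had a mean DSS difference of 5.30 (SE 0.62), with an unadjusted p of 0.00143 and a Benjamini-Hochberg adjusted p of 0.709 in limma. S100a9 had 4.62 (SE 0.97), with a limma p of 0.0108 and the same adjusted p of 0.709, and was higher with DSS in both genotypes, as S100a8 was. For Ltf the mean was 0.85 (SE 0.27), with a limma p of 0.0388 and an adjusted p of 0.714. The means of Clec4d and Fpr2 were 1.58 (SE 0.57) and 1.12 (SE 0.43), with unadjusted p of 0.0547 and 0.0621.

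After adjustment, 0 of the 45037 probe sets, or 0%, passed the limma threshold of 0.05, and so 0 members did. At an unadjusted p under 0.05 there were 3065 probe sets, or 6.81%, among them 3 of the 9 members, S100a8, S100a9 and Ltf. The remaining members had unadjusted p between 0.0547 and 0.67. Elane had the highest, with a mean difference of -0.14 (SE 0.30).

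Whether loss of Adamts12 went with other levels of these genes was read first in the untreated colon. There Fpr2 differed by 1.57, or 2.97-fold, and was the only member at least 2-fold higher, 1 of 9 against 1.87% of all probe sets. Members at least 2-fold lower numbered 0, against 3.89%. The next largest differences were those of Elane at 0.76 and Ltf at 0.61. S100a8 differed by 0.28 and S100a9 by -0.21, and the median of the 9 was 0.24, beside 0.06 over all probe sets.

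In the DSS-treated colon the genotype difference was wider for calprotectin and the receptors. S100a9 was 3.43 higher in KO, or 10.8-fold, Fpr2 2.92, or 7.57-fold, S100a8 2.49, or 5.62-fold, and Clec4d 2.20, or 4.59-fold. Ordered by this difference among all probe sets, S100a9 held rank 15, Fpr2 rank 23, S100a8 rank 51 and Clec4d rank 79. Trem1 was 1.11 higher on its brighter probe set and 0.38 on the other, and Csf3r 0.98. Ltf differed by 0.13 and Elane by 0.00, with the same reading of 3.22 on both DSS arrays.

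In all, 5 of 9 member probe sets (S100a8, S100a9, Fpr2, Clec4d and the brighter Trem1 probe set) were at least 2-fold higher in KO with DSS, against 2.19% of all probe sets, and 0 were at least 2-fold lower, against 0.766%. The median was 1.11, beside -0.02 over all probe sets. This comparison shares the KO DSS array with the DSS comparison in KO, so the high readings of that array enter both.

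**Figure D3:**
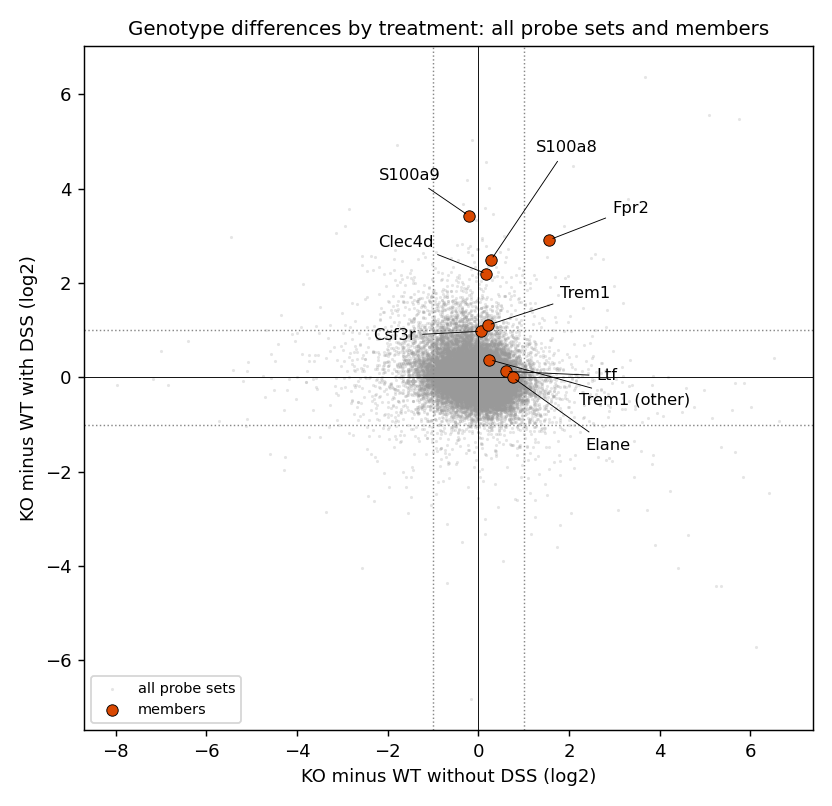
KO minus WT log2 difference without DSS (horizontal axis) and with DSS (vertical axis) for all 45037 probe sets (grey) and the 9 member probe sets (orange), with 2-fold limits dotted; the axes rest on separate arrays. Fpr2 lies past the 2-fold limit on both axes at 1.57 and 2.92, S100a9, S100a8 and Clec4d lie near 0 without DSS and between 2.20 and 3.43 with it, and Ltf and Elane lie near 0 with DSS.

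Over both treatments, Fpr2 had a mean KO minus WT difference of 2.24 (SE 0.43), with an unadjusted limma p of 0.0076 and an adjusted p of 1.00. It was the only member at an unadjusted p under 0.05, which 822 probe sets, or 1.83%, reached. The limma adjusted p passed 0.05 for 0 of all probe sets, or 0%. S100a8 and S100a9 had means of 1.38 (SE 0.62) and 1.61 (SE 0.97), with unadjusted p of 0.0952 and 0.179. The difference of the DSS effect between genotypes, 2.21 for S100a8, 3.64 for S100a9, 2.02 for Clec4d and 1.35 for Fpr2, could not be tested with 1 array per group.

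The genes whose profile over the 4 arrays was most like each member's were found by Euclidean distance between log2 values centred on each gene's mean. The search covered the 12176 genes whose brightest probe set lay above the array median on at least 1 array. For S100a8, whose own profile lies 5.59 from its mean, the nearest was the matrix metalloprotease gene Mmp3 at 0.43, followed by S100a9 at 1.02 and the neutrophil-attracting chemokine gene Cxcl2 at 1.03. For S100a9 the order was Mmp3 (0.71), the hyaluronan-degrading Cemip (0.93) and S100a8 (1.02). The subunits were thus among each other's 3 nearest genes.

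Fpr2 was nearest to Calhm6 (0.60), the serine protease inhibitor gene Serpina3n (0.64) and the chemokine gene Cxcl10 (0.77). Clec4d was nearest to Medag (0.13), Il5ra (0.16) and the monocyte-attracting chemokine gene Ccl2 (0.22), with 7 genes within 0.5. Il5ra read 1.02 on both untreated arrays, under the background limit, and 1.40 on the WT DSS array, beside it. The flatter profiles had many near neighbours. Within 0.5 there were 244 genes for Csf3r (nearest Foxf1, Galnt18 and Ptges), 220 for Trem1 (Gcnt2, AB124611 and Slc4a11), 502 for Ltf (Aprt, Ddx11 and Vcpkmt) and 2507 for Elane (4931406H21Rik, Setd1a and Klk1b21). These are descriptions over 4 arrays.

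Genes of the related lists were read from their brightest probe set. Of all probe sets, 2.91% were at least 2-fold higher and 2.72% lower with DSS in WT, and 5.95% and 3.44% in KO. For KO against WT the shares were 1.87% and 3.89% without DSS, and 2.19% and 0.766% with it. In lists this short, a count of 0 with DSS in WT lies near the shares over all probe sets. For Emb, Stat3, Cebpb, Syk, Malt1, Gda and Serpinb1a, as for some genes described below, another probe set lay on the other side of the 2-fold limit with DSS in KO. Of 9 genes for receptors of calprotectin and their signalling, 0 were at least 2-fold apart with DSS in WT, and in KO 3 were higher (Cd14, Cd69 and Emb) and 1 lower (Bsg), with medians of 0.00 and 0.53. Tlr4, the main signalling receptor, read 5.49, 4.80, 5.39 and 5.45 on the untreated WT, untreated KO, WT DSS and KO DSS arrays. Cd14, its co-receptor, read 7.81, 6.84, 8.09 and 8.20, so the DSS difference of 1.36 in KO started from a lower untreated KO value. Ager, which encodes the receptor RAGE, stayed between 2.98 and 3.46.

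Of 12 other genes of the S100 list measured, 0 were at least 2-fold apart with DSS in WT, with a median of -0.05. In KO 3 were higher (S100a4, S100a14 and S100a16) and 1 lower (S100g), with a median of 0.06. The list includes S100pbp, which is named for binding an S100 protein and is not itself an S100 gene. S100a14, an epithelial member, read 8.72, 5.69, 8.71 and 9.37 on the 4 arrays in the order above, and S100a16 read 9.78, 8.60, 9.90 and 10.43. Both were lowest on the untreated KO array and nearly level elsewhere. S100g, the calcium-binding protein calbindin-D9k of the proximal gut, read 3.22, 7.05, 3.47 and 1.63 and was highest on that same array.

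On the G-CSF axis, 10 other genes were measured. With DSS, 2 were at least 2-fold higher in WT (Socs3 and Cebpb) and 4 in KO (Csf3, Csf2rb, Socs3 and Cebpb), and Gfi1 was lower in both. Csf3, which encodes G-CSF, the ligand of Csf3r, read 2.44, 3.16, 2.74 and 4.86, and was 2.12 higher in KO than in WT with DSS. Csf2rb, the shared receptor chain for GM-CSF, interleukin-3 and interleukin-5, read 5.40, 4.82, 5.66 and 7.63. Socs3, the feedback inhibitor of this signalling, differed by 2.51 in WT and 2.33 in KO, and Gfi1, a transcription factor of granulocyte and secretory epithelial cells, by -1.76 and -1.42.

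Of 6 other genes among formyl peptide receptors and their ligands, Saa3 was higher with DSS in both genotypes. Saa3, an inducible serum amyloid A, read 4.63, 6.52, 6.83 and 10.04, so that the untreated KO colon lay near the WT DSS colon. Anxa1, which encodes the Fpr2 ligand annexin A1, differed by 0.44 in WT and 2.78 in KO on its brighter probe set, and by 0.14 and 0.34 on its other one. The brighter one read 9.85, 8.41, 10.29 and 11.19, so its DSS difference in KO started from a lower untreated KO value. Camp, the cathelicidin of specific granules and an Fpr2 ligand, stayed between 2.10 and 2.44, under the median of each array.

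The partners of Trem1 and Clec4d gave mixed values. Of 8 other genes of the TREM list, 0 were at least 2-fold apart with DSS in WT and 1 was higher in KO (Treml4, whose untreated KO reading of 1.27 was under the background limit). Tyrobp, the Trem1 adaptor, read 6.35, 6.82, 6.18 and 7.03, and Pglyrp1, which encodes a Trem1 ligand, 9.36, 9.40, 9.97 and 10.19. Clec4e, the lectin receptor Mincle that pairs with Clec4d, read 2.23, 2.21, 3.02 and 5.75, the same order of DSS arrays as Clec4d, with KO 2.73 above WT under DSS. Its other probe set differed by -0.27 with DSS in WT and 1.03 in KO. Clec7a, the beta-glucan receptor Dectin-1, read 5.09, 5.24, 5.07 and 7.23, while the shared adaptor Fcer1g differed with DSS by 0.33 in WT and -0.02 in KO. Of 9 genes of that list, 0 were at least 2-fold higher in WT and 4 in KO (Clec4e, Clec7a, Syk and Malt1).

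**Figure D4:**
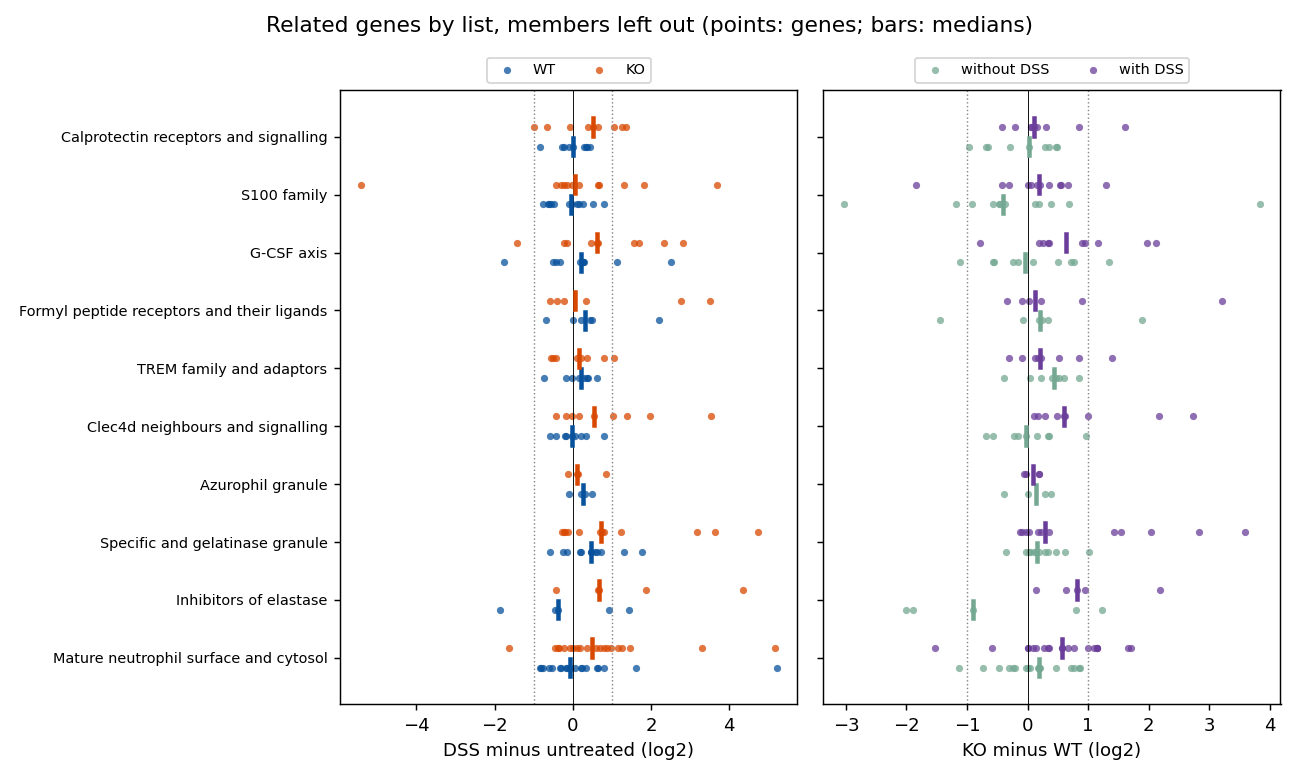
Log2 difference (horizontal axes) of each gene of the 10 related lists (rows), members left out, for DSS minus untreated in WT and KO (left panel) and KO minus WT without and with DSS (right panel); points are genes, thick bars list medians and dotted lines 2-fold limits. The azurophil granule genes lie inside the 2-fold limits in both panels, and the specific granule list holds genes beyond 3 in KO.

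The azurophil genes Mpo, Prtn3 and Ctsg are, like Elane, transcribed mainly in marrow precursors. They read 1.42 to 1.93, 3.18 to 3.46 and 2.21 to 2.40 across the 4 arrays. Mpo and Ctsg lay under the median of each array and Prtn3 near it, so little can be read from how level they were. Of the 4 azurophil genes measured beside Elane, 0 were at least 2-fold apart in any of the 4 comparisons, although another probe set of Ctsc differed by 1.15 with DSS in KO. In the specific and gelatinase list, 2 of 12 others were higher with DSS in WT (Chil3 and Hp) and 4 in KO (Lcn2, Chil3, Mmp8 and Hp). Chil3, a chitinase-like protein of neutrophils and macrophages, read 2.13, 2.27, 3.43 and 7.02, and Lcn2, an iron-scavenging protein also made by epithelium, 2.64, 2.28, 3.10 and 5.92. Ngp and Camp, which like Ltf are specific granule genes, had DSS differences between -0.22 and 0.21, from readings under the median of each array. With DSS, KO was at least 2-fold above WT for 5 of these 12 (Lcn2, Chil3, Mmp8, Cybb and Hp).

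Among inhibitors of elastase, Slpi, the secretory leukocyte protease inhibitor, read 7.25, 5.25, 8.68 and 9.62, a DSS difference of 1.43 in WT and 4.37 in KO, the latter starting from the low untreated KO value. Serpina3n read 5.70, 6.93, 6.63 and 8.81, and Serpinb1a, a cytosolic elastase inhibitor, 10.13, 9.23, 9.74 and 9.87. Of the 5 measured, 1 was 2-fold higher or more after DSS in WT (Slpi) and 2 in KO (Slpi and Serpina3n), and 1 was lower in WT (Wfdc2).

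Genes of mature neutrophils were measured in part. Of 29, probe sets with 1 symbol were found for 20, and Ly6g and Retnlg were among those not analysed here. With DSS, 2 of the 20 were 2-fold higher or more in WT (Il1b and Lrg1) and 5 in KO (Cxcr4, Il1r2, Il1b, Hdc and Lrg1). Cd177 differed by -1.63 in KO, and the medians were -0.08 in WT and 0.48 in KO. In the comparison of KO with WT under DSS 7 were higher and 1 lower (Cd177). Cd177, Slfn4, Mxd1 and Gda read 9.69, 10.81, 9.38 and 8.21 on the untreated WT array, where S100a8 read 1.61. Which cells gave these high readings was not tested. Lrg1 had the largest DSS differences of the list, 5.22 in WT and 5.18 in KO, and KO lay 0.13 above WT under DSS. The histidine decarboxylase gene Hdc had DSS differences of 0.79 in WT and 1.16 in KO on its brighter probe set. On its other probe set they were 0.19 and 3.15. Cxcr2, a chemokine receptor gene of neutrophils and some other cells, read 1.98, 2.70, 2.33 and 2.33. It lay under the array median on each array, with equal values on the DSS arrays. Il1r2, a decoy receptor, read 3.19, 3.66, 3.84 and 4.93, the same order as Csf3r.

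Markers of other cells that could carry these transcripts were set beside them. The mean log2 level of 9 macrophage and monocyte markers was 5.95 on the untreated WT array, 6.01 on the untreated KO array, 5.54 on the WT DSS array and 5.96 on the KO DSS array, and with DSS 0 were at least 2-fold higher in either genotype, while Cd163 was lower in WT and C1qa in KO. Other probe sets of C1qb and Ccr2 differed by 1.17 and 1.21 with DSS in KO, and Mrc1 was 1.13 higher in KO than in WT with DSS. The 4 eosinophil markers were under the median of each array, with means of 1.29 to 1.87. For 11 markers of stratified squamous epithelium, a tissue of the anal margin that can express calprotectin, the means were 2.59, 2.69, 2.62 and 2.74, with 9 of them under the median on each array. The 4 B cell markers were higher on the untreated WT and KO DSS arrays than on the other pair, at means of 5.65, 3.61, 4.13 and 6.59, and their part in the member differences was not tested. Among 7 mast cell markers, with means of 3.69, 3.05, 3.96 and 4.09, 4 were 2-fold higher or more after DSS in KO (Cpa3, Mcpt1, Mcpt2 and Cma1), the last 3 being at least 2-fold lower in untreated KO than in untreated WT. Mcpt1 and Mcpt2 were also higher with DSS in WT, and Kit was lower in both genotypes, with differences of -1.08 and -1.31. The part of mast cells was not tested either. For the rest the means were, for T cell markers, 4.34, 4.94, 4.19 and 4.37, for smooth muscle markers, 10.00, 9.08, 9.38 and 9.37, and for red blood cell markers, 1.96, 2.40, 2.27 and 2.03. Of the 6 neutrophil markers measured, 3 are members. The others, Cxcr2, Mmp8 and Mmp9, had median differences of 0.56 with DSS in WT, 0.70 with DSS in KO and 0.17 for KO against WT with DSS. Mmp8 read 1.44, 2.46, 2.16 and 3.70, and Mmp9 2.99, 3.02, 3.55 and 3.72.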

How the data were processed

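Total RNA from the distal colon of 4 mice was extracted with Trizol and hybridised as biotinylated cRNA to Affymetrix arrays, per the labels' protocols. The authors' deposited values were used unchanged as log2. This base was inferred from their maximum of 13.23, which as a natural log means 556821, past the 65535 of a 16-bit scanner, and in base 2 means 9608. Summarization and normalization are not given in the sources used here. Probe sets were named by the platform annotation, updated by Entrez number through RefSeq (GRCm38.p6): 34945 had 1 symbol (34741 matched by number), 932 several and 9160 none. The 64 controls were left out.

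All 45037 other probe sets were tested with limma 3.58.1 in R 4.3.3 (lmFit, eBayes with an intensity trend, two-sided, Benjamini-Hochberg) for DSS with genotype as covariate and for KO with treatment as covariate. No filter was applied in these tests. Of the 9 member probe sets, 8 lay above an array median on at least 1 array, 4 of them on an untreated array. Related genes were read from the probe set with the highest mean. Up to 6 genes per list with the largest mean DSS differences were named, plus ligands, receptors, adaptors and inhibitors; genes behind a count of 5 or fewer, and others singled out, were named after their values were seen. The members, lists and background limit were chosen with earlier results of these data known, and the promoter motifs with the sequences in view. Arrays give no read depth; their number limits the precision. The code was tested on simulated data. Python 3.11.15, numpy 2.4.6, pandas 2.3.3 and matplotlib 3.10.9 were used.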

Additional observations from a re-analysis of the deposited data

Results flagged for a closer look

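With 1 array per group, none of these differences between groups was tested. They were singled out because the same contrast ran in opposite directions in 2 settings. S100a9 was -0.21 in KO against WT without DSS, between low readings of 1.94 and 2.15, and 3.43 with DSS, a change of 3.64. With readings under the array median raised to it, its difference without DSS was 0.03. Elane was 0.24 with DSS in WT and -0.52 in KO, a change of -0.76 within low values.

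Outside the members, genes of the lists were singled out where both opposite differences were at least 2-fold. S100g was 3.83 in KO against WT without DSS and -1.84 with DSS, a change of -5.67, and Cxcr4 was -1.13 and 1.15, a change of 2.28. The 4 B cell markers were lower with DSS in WT and higher in KO, and likewise lower in KO without DSS and higher with it. The change was 3.71 for Cd79a, 4.82 for Cd79b, 5.13 for Ms4a1 and 4.36 for Cr2. Each change draws on all 4 arrays, among them the untreated KO and WT DSS arrays, where genes of intestinal position were shifted. The part of sampling position was not tested.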

How the results depend on the processing

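Quantile normalization and median centring left the members' 2-fold counts at 3, 6, 1 and 5. A filter at the array median and a floor at the background limit gave the same counts, but neither can change a member's difference. Averaging the probe sets of each gene and, added after the data were seen, a floor at the array median gave counts within 1 of these. Under the floor at the array median, the DSS differences of S100a8 and S100a9 shrank to the values given in the report, Ltf was at 0.93 with DSS in WT and Trem1 at 0.12 with DSS in KO and 0.17 in KO against WT with DSS. With the mean over its probe sets, Trem1 was at 0.76 and 0.74 there. The KO test over both treatments called 2 probe sets with quantile normalization, both of Ifi44l, in place of 0; the cause was not tested. The members' adjusted p lay between 0.217 and 0.98 for DSS and between 0.998 and 1.00 for KO over the limma alternatives. Without 1 array, limma has no residual degrees of freedom and gives the difference of the intact pair, as reported for that pair. No paired analysis was possible because each group holds 1 array. Signal over background limits Trem1 most, with a lowest value of 1.45 beside the limit of 1.39.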
